A study of Mus musculus with 58 samples.

Results

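The genes described are those of the cytosolic ribosomal proteins, the proteins of the ribosome that translates nuclear-encoded mRNA. They were taken by gene symbol (Rpl or Rps and a number, with the usual endings, and the stalk and laminin receptor members). The rule itself uses no values, but it was chosen with earlier results of these data known. Of the 17216 genes measured 26 met the rule. Of these, 14 encode proteins of the large subunit and 12 of the small subunit, and 5 are paralogs (Rpl3l, Rpl39l, Rpl7l1, Rps27l and Rps4l). The stalk genes Rplp0, Rplp1 and Rplp2, the paralog partners Rpl3, Rpl39, Rpl7 and Rps4x, and Rpl11 and Rps27a were not analysed here. The family is larger than these 26 genes, so a count out of 26 is not a count over all cytosolic ribosomal proteins.

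The study measured mRNA on 58 Affymetrix arrays from 30 mice on a C57BL/6J background, all at 8 months of age, in a model that its title gives as APP/PS1 and its labels as TG. The labels do not name the promoter that drives the transgene. Frontal cortex was measured in 8 TG and 8 WT males and in 6 TG and 6 WT females. Hippocampus was measured in 8 TG and 8 WT males and in 7 TG and 7 WT females, and 28 of the mice gave both regions. The comparisons asked how the genotype moved these genes in each region, whether the sexes differed in this, and how the regions differed.

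Cytosolic ribosomal proteins assemble on ribosomal RNA in the nucleolus, one copy of nearly every protein to a ribosome, and their genes are therefore usually expressed in step. Many of their mRNAs begin with a run of pyrimidines at the 5′ end, the terminal oligopyrimidine motif, through which mTOR signalling controls their translation. In the brain they are expressed in every cell type, and ribosomes are also found in dendrites, in axons and in the fine processes of glia.

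The start regions of 8 of these genes are printed to show where a pyrimidine run lies near the annotated start and where none does (Rpl26 and Rpl5). They include genes that did and did not differ between the genotypes. Each region goes from 15 bases before to 15 bases after the start of transcription annotated by RefSeq on GRCm38.p6, on the gene's own strand. Capitals mark runs of 6 or more pyrimidines (C or T). The run marked in Rps27l and the first run in Rps15a lie wholly before the annotated start. They are therefore outside an mRNA that begins there. The first 5 genes printed were higher in TG frontal cortex, Rps15a was lower, and Rpl5 and Rpl15 did not pass the test.
Rps6 (chr4:86857353-86857382, minus strand): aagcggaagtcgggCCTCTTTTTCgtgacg
Rps27l (chr9:66946071-66946100, plus strand): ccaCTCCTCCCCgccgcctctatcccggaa
Rps9 (chr7:3704026-3704055, plus strand): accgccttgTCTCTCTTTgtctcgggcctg
Rpl14 (chr9:120571502-120571531, plus strand): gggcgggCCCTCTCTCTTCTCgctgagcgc
Rpl26 (chr11:68901551-68901580, plus strand): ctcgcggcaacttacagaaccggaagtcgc
Rps15a (chr7:118116133-118116162, minus strand): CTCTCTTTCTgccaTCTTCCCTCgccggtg
Rpl5 (chr5:107900513-107900542, plus strand): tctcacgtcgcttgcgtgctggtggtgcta
Rpl15 (chr14:18270972-18271001, minus strand): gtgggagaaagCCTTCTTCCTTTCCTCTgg

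Of the 26 genes, 22 matched the RefSeq promoter table, and Rpl21, Rps14, Rpl8 and Rps4l did not. A run of 6 or more pyrimidines on the sense strand lay within 15 bases of the start in 13 of the 22, against 29.2% of all 32851 promoters in the table. It was found in 8 of the 13 matched genes that were higher in TG frontal cortex and in 5 of the 9 other matched genes. CCGGAA, the core of the motif bound by ETS factors such as GABP, lay on either strand of the 300-base promoter (250 bases before to 50 after the start) in 12 of the 22, against 14.9% of all promoters. The same 6 letters were present in 6 of the 13 genes that were higher and in 6 of the 9 others. AAGATGG, the core of the YY1 motif, was found on either strand in 5 of the 22, against 6.34% of all promoters. TATAAA on the sense strand was found in 0 of the 22, against 8.32% of all promoters. For each motif a gene was counted if any of its starts in the table matched, whereas the share is over single promoters. Matches to CCGGAA or AAGATGG on the opposite strand can share bases with a pyrimidine run, and a match describes the sequence only.

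The values are the deposited log2 expression of each gene's probe set, so a difference of 1 is a doubling. The median gene lay at 4.79 and array medians lay between 4.74 and 4.86. The mean over all arrays ranged from 2.88 for Rpl3l to 12.65 for Rpl4, and 19 of the 26 genes were above the median gene. The level of a probe set also depends on its probes, so genes were not ranked by level. Rpl3l (2.88), Rpsa (2.99), Rpl39l (3.19), Rps10 (3.59) and Rps27 (3.90) had means under 4, where differences are compressed. Ribosomal protein genes have many processed pseudogenes, and whether probes also detected such copies was not tested. The median SD within a group was 0.15 for the 26 genes and 0.14 for all genes.

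Thy1, whose promoter drives many brain transgenes, checked the labels: it was higher by 1.19 (SE 0.07) in TG frontal cortex and by 1.12 (SE 0.09) in TG hippocampus. The array labelled hippocampus of TG female mouse 7 had 10.92, within the WT range of 10.61 to 11.02 and below the 11.90 to 12.38 of the other TG hippocampus arrays. The array labelled hippocampus of TG female mouse 4 had the lowest mean over the 12 hippocampal field markers measured, at 5.75. The count over both sexes in hippocampus and the genes that passed there are therefore also given without each of these arrays. Counts within females are given as a range over single arrays left out. Counts of markers and of the other lists in hippocampus include both arrays. The field markers otherwise fitted the labels, since 12 of 12 hippocampal markers were higher and 7 of 9 cortical markers lower in WT hippocampus than in WT frontal cortex, while 1 cortical marker was higher.

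In frontal cortex, 15 of the 26 genes rose in TG mice and 2 fell. Rps6 rose most, by 0.57 on the log2 scale, followed by Rps14, Rps27l, Rps9, Rpl14 and Rpl26, and the genes that fell were Rps15a and Rps4l. Among all 17216 genes 12.9% were higher and 18.7% lower. The median difference of the 26 genes was 0.27 and that of all genes was -0.01, and 21 of the 26 estimates were above 0. The difference was taken for males and females and averaged, in a limma fit to the frontal cortex arrays with Benjamini-Hochberg adjustment over all genes and a threshold of 0.05. These are tissue samples, in which fewer cells of a type and less RNA per cell cannot be told apart.

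**Figure D1:**
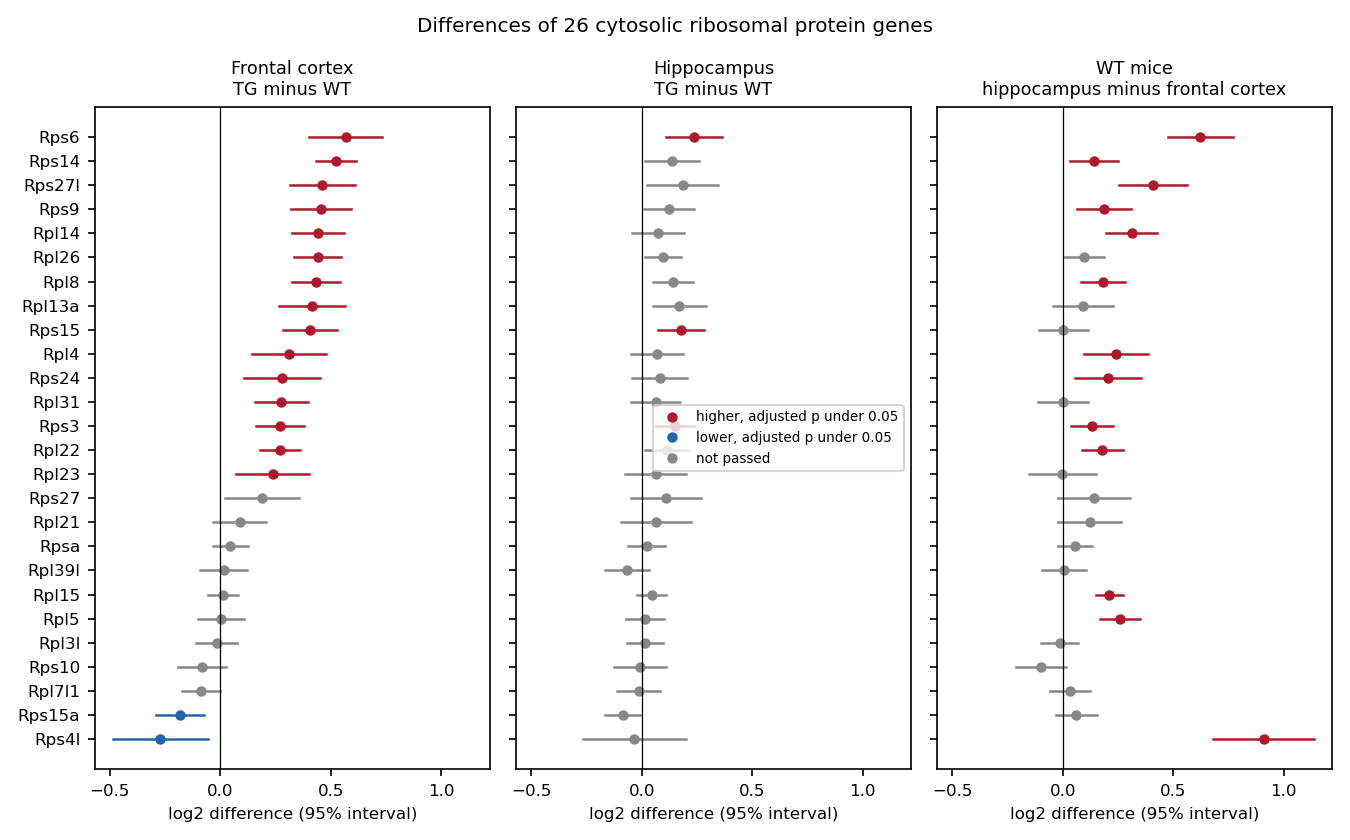
Log2 difference (horizontal axis) of each of the 26 genes, ordered by the frontal cortex difference, for TG minus WT in frontal cortex, TG minus WT in hippocampus and hippocampus minus frontal cortex in WT mice. Points are limma estimates and lines their 95% intervals. Red marks genes higher and blue genes lower at an adjusted p under 0.05, and grey the rest. In frontal cortex 15 genes are red and 2 blue, in hippocampus 3 are red, and between WT regions 13 are red. Of the 26 estimates 21 lie above 0 in frontal cortex, 21 in hippocampus and 23 between WT regions.

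Rps6, the small subunit protein phosphorylated by the S6 kinases downstream of mTOR, lay at 6.99, 7.21 and 7.79 (lowest, median and highest of 14) in TG frontal cortex, against 6.26, 6.74 and 7.28 in the 14 WT arrays. The groups overlapped, and the lowest TG array lay above the WT median. The difference was 0.57 (SE 0.08, limma adjusted p = 2.6e-06). Rps14, a small subunit protein of the platform, lay at 10.09, 10.23 and 10.56 in TG frontal cortex, against 9.58, 9.74 and 9.91 in WT frontal cortex. Every TG array was above every WT array. The difference was 0.52 (SE 0.04, limma adjusted p = 1.2e-10), the smallest p among the 26 genes.

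Rpl26, a large subunit protein near the exit tunnel that in human cells also binds the mRNA of p53, lay at 12.41, 12.50 and 12.79 in TG frontal cortex, against 11.65, 12.12 and 12.32 in WT frontal cortex. The ranges did not overlap. The difference was 0.44 (SE 0.05, limma adjusted p = 8.4e-08). Rpl26 and Rps14 were the 2 of 26 genes whose TG and WT ranges in frontal cortex did not overlap, and 2.06% of all genes had such a gap with TG higher.

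The other large subunit genes that rose were Rpl14 (0.44), Rpl8 (0.43), Rpl13a (0.42), Rpl4 (0.31), Rpl31 (0.28), Rpl22 (0.27) and Rpl23 (0.24), so that 8 of 14 rose and 0 fell. Rpl8 lies at the peptidyl transferase centre, Rpl4 lines the exit tunnel, and Rpl13a is also known as a regulator of inflammatory mRNA translation in human myeloid cells. Rpl14 lay at 6.26, 6.63 and 6.94 in TG frontal cortex, against 5.98, 6.16 and 6.38 in WT frontal cortex. These ranges overlapped between 6.26 and 6.38, with the TG median above every WT array. Rpl8 lay at 10.65, 10.75 and 11.05 in TG frontal cortex, against 10.17, 10.35 and 10.68 in WT frontal cortex, and here too the overlap was narrow. Rpl4 overlapped widely, at 12.33, 12.76 and 13.05 in TG frontal cortex, against 12.08, 12.39 and 12.996 in WT frontal cortex. Rpl4 no longer passed after a second quantile normalization (0.18, limma adjusted p = 0.104), and Rpl23 no longer passed when array medians were made equal (0.19, limma adjusted p = 0.0719).

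Large subunit genes that did not pass included Rpl5 and Rpl15, which are far from the lower limit of the scale. Rpl5, which with 5S rRNA and Rpl11 can bind Mdm2, lay at 7.80, 7.98 and 8.27 in TG frontal cortex, against 7.77, 7.99 and 8.21 in WT frontal cortex. Rpl15 lay at 8.74, 8.89 and 9.03 in TG frontal cortex, against 8.74, 8.86 and 9.02 in WT frontal cortex. For both the groups covered nearly the same range, and the differences were 0.00 (SE 0.05) and 0.01 (SE 0.03). Rpl21 was at 0.09.

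In the small subunit 7 of 12 genes rose and 2 fell. Beside Rps6 and Rps14, those that rose were Rps27l (0.46), Rps9 (0.46), Rps15 (0.41), Rps24 (0.28) and Rps3 (0.27). Rps9 lay at 4.52, 4.70 and 5.20 in TG frontal cortex, against 3.97, 4.29 and 4.56 in WT frontal cortex, with a narrow overlap. Rps15, a protein of the small subunit head, lay at 11.55, 11.87 and 12.20 in TG frontal cortex, against 11.16, 11.46 and 11.81 in WT frontal cortex. The TG median lay above every WT array. Rps3, which lines the mRNA entry channel and also acts in DNA repair, lay at 5.89, 6.08 and 6.40 in TG frontal cortex, against 5.59, 5.86 and 6.01 in WT frontal cortex, again with the TG median above every WT array.

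Rps15a lay at 5.71, 6.20 and 6.34 in TG frontal cortex, against 6.14, 6.30 and 6.65 in WT frontal cortex. The groups overlapped between 6.14 and 6.34. It fell by 0.18 (SE 0.05, limma adjusted p = 0.00846). Rps10 (-0.08) and Rpsa (0.05), the laminin receptor, did not pass.

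**Figure D2:**
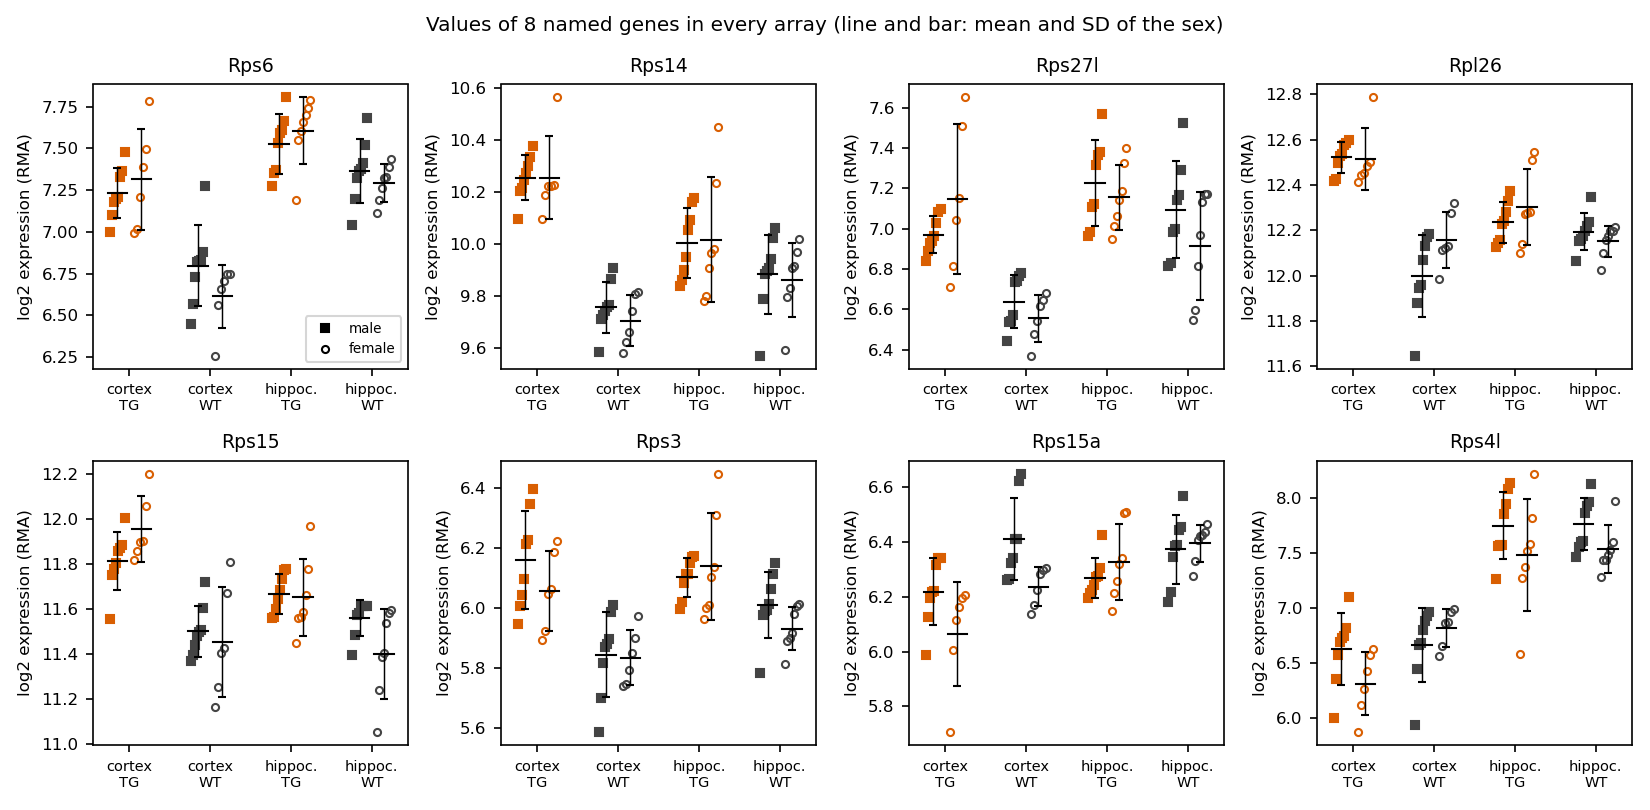
Log2 expression (vertical axis) of 8 genes in every array, TG in orange and WT in grey, males as filled squares and females as open circles, with the mean and SD of each sex. Rps14 and Rpl26 show no overlap of TG and WT in frontal cortex, Rps15a is lower in TG frontal cortex, and Rps4l is set apart by region.

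The paralogs did not move together. Rps27l, a close copy of Rps27 that p53 is known to induce, lay at 6.71, 6.998 and 7.65 in TG frontal cortex, against 6.37, 6.59 and 6.78 in WT frontal cortex. The ranges overlapped between 6.71 and 6.78. The difference was 0.46 (SE 0.07, limma adjusted p = 1e-05). Its partner Rps27 lay at 3.69, 3.88 and 4.36 in TG frontal cortex, against 3.44, 3.76 and 4.18 in WT frontal cortex, a difference of 0.19 (SE 0.08) that did not pass (limma adjusted p = 0.0792). Rps27 passed without the frontal cortex array of WT male mouse 48 (0.22, limma adjusted p = 0.035) or of WT female mouse 1 (0.21, limma adjusted p = 0.0456).

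Rps4l, an autosomal relative of Rps4x, lay at 5.87, 6.57 and 7.10 in TG frontal cortex, against 5.94, 6.83 and 6.99 in WT frontal cortex. The groups overlapped almost completely, and WT male mouse 48 gave the lowest WT value. It fell by 0.27 (SE 0.11, limma adjusted p = 0.0488), and the call was lost without any 1 of 19 of the 28 arrays (limma adjusted p from 0.0515 to 0.107). Rpl7l1, a relative of Rpl7 that acts in ribosome assembly, was at -0.09 and did not pass. When array medians were made equal, Rpl7l1 (-0.14, limma adjusted p = 0.0155) and Rps10 (-0.13, limma adjusted p = 0.0478) passed as lower, so that 14 genes were higher and 4 lower. Rpl3l, known from striated muscle, was at -0.02 and Rpl39l, known from testis, at 0.01, both near the lower limit of the scale.

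Under equal array medians the whole table shifted too, from 2227 genes higher and 3219 lower as deposited to 1660 higher and 4976 lower. Among genes above the median level, 14 of the 19 cytosolic ribosomal protein genes were higher, against 16.3% of such genes. In the same stratum 2 of the 19 were lower, against 32.6%.

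Both sexes showed the frontal cortex differences. In males 12 genes rose and 1, Rps15a, fell, against 8.8% and 11.7% of all genes. In females 13 rose and 1, Rps4l, fell by 0.50 (SE 0.16, limma adjusted p = 0.025), against 8.75% and 10.2% of all genes. The median difference was 0.22 in females and 0.21 in males. Rpl13a, Rpl14, Rpl22, Rpl26, Rpl8, Rps14, Rps15, Rps27l, Rps3, Rps6 and Rps9 rose in each sex, 11 of the 26 genes, against 6.24% of all genes. In single arrays, Rps6 lay at 6.99, 7.30 and 7.79 in the 6 TG females, against 6.26, 6.68 and 6.75 in the 6 WT females, with no overlap. In the 8 TG males it lay at 7.0003, 7.20 and 7.48, against 6.45, 6.82 and 7.28 in the 8 WT males, with overlap.

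The difference between the sexes in the TG effect was tested directly, and 0 of the 26 genes passed in frontal cortex by limma, as did 0% of all genes. At an unadjusted p under 0.05 there were 3, Rpl4 (0.50 in females and 0.11 in males), Rps4l (-0.50 in females and -0.04 in males) and Rpsa (0.15 in females and -0.06 in males). Of all 17216 genes 1130 had such a p. In hippocampus 0 of 26 passed by limma, again with 0% of all genes. That count stayed at 0 when any 1 of the 30 hippocampus arrays was left out. Between WT females and WT males 0 of the 26 differed in frontal cortex, where 0.157% of all genes did, and 0 differed in hippocampus, where 1.02% did. In each region 2 of the 26 had an unadjusted p under 0.05 between WT females and WT males. Among all 17216 genes 1978 did in frontal cortex and 2633 in hippocampus. The sexes carry separate ranges of mouse numbers, so sex and cohort cannot be told apart.

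In hippocampus 3 of the 26 genes rose in TG mice and 0 fell, while 3.94% of all genes were higher and 2.7% lower. They were Rps6, Rps15 and Rps3, all of the small subunit. The median difference of the 26 genes was 0.07 and that of all genes -0.01, and 21 of the 26 estimates were above 0. Without mouse 7 the same count of 3 rose and 0 fell, and without mouse 4 likewise 3 rose and 0 fell.

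Rps6 lay at 7.19, 7.60 and 7.81 in the 15 TG hippocampi, against 7.04, 7.33 and 7.68 in the 15 WT hippocampi. The groups overlapped over most of their ranges. The difference was 0.24 (SE 0.06, limma adjusted p = 0.0169), and it was 0.24 without mouse 7 and 0.22 without mouse 4. Rps15 lay at 11.45, 11.64 and 11.97 in TG hippocampus, against 11.05, 11.57 and 11.61 in WT hippocampus. The TG median lay above every WT array. The difference was 0.18 (SE 0.05, limma adjusted p = 0.0277), and it did not pass with equal array medians (limma adjusted p = 0.0598) or after a second quantile normalization (limma adjusted p = 0.196). Without mouse 7 the Rps15 difference was 0.19 and without mouse 4 it was 0.15, and it passed both times.

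Rps3 lay at 5.96, 6.11 and 6.45 in TG hippocampus, against 5.78, 5.99 and 6.15 in WT hippocampus, with overlap, and the difference was 0.15 (SE 0.04, limma adjusted p = 0.0291). Without mouse 7 the Rps3 difference was 0.15 and without mouse 4 it was 0.12, and it passed both times. Rps3 no longer passed without TG female mouse 9 (0.14, limma adjusted p = 0.0512) or with equal array medians (0.12, limma adjusted p = 0.0616). Rpl8, of the large subunit, was next at 0.14 (limma adjusted p = 0.0506), and it passed without any 1 of 10 of the 30 arrays. Rpl8 also passed after a second quantile normalization (limma adjusted p = 0.0232). The same held among genes above the median level (limma adjusted p = 0.0365) and with a trended robust prior (limma adjusted p = 0.0403). No gene's TG and WT ranges were apart in hippocampus, 0 of 26, and 0.0465% of all genes had such a gap with TG higher.

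Within the sexes 0 of the 26 genes passed in hippocampus in females, where 1.54% of all genes were higher and 0.929% lower, and 0 in males, where 1.04% were higher and 0.261% lower. When single arrays were left out, 0 to 3 genes were higher in females and 0 in males. At an unadjusted p under 0.05 limma gave 8 of 26 in females and 2 of 26 in males. Among all 17216 genes it gave 2392 in females and 2341 in males. Rps6 was at 0.31 (SE 0.09) in females and 0.16 (SE 0.08) in males. Markers of the choroid plexus, which adjoins the hippocampus, had a list mean of 3.64 to 8.13 in TG hippocampus and 3.58 to 7.70 in WT hippocampus. Of its 13 markers 0 passed by limma and 6 had an unadjusted p under 0.05, as did 3425 of all 17216 genes. In TG hippocampus 13 of 13 estimates were above 0, with a median of 1.03 over both sexes and 1.68 in males. With that mean in the fit, 1 of the 3 genes passed, Rps15 at 0.19 (limma adjusted p = 0.0421), while Rps6 was at 0.19 (limma adjusted p = 0.0822) and Rps3 at 0.15 (limma adjusted p = 0.0538).

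The TG effect differed between the regions for 6 of the 26 genes, each smaller in hippocampus than in frontal cortex. None was larger in hippocampus, 0 of 26. Of all genes 4.05% had a lower and 2.84% a higher effect in hippocampus. Rpl26, the gene with the smallest p, differed by 0.10 in hippocampus and by 0.44 in frontal cortex, a difference of effects of -0.34 (SE 0.06, limma adjusted p = 0.00036). Rps14 differed by 0.14 in hippocampus and 0.52 in frontal cortex (-0.39, SE 0.08). Rpl14 differed by 0.07 in hippocampus and 0.44 in frontal cortex (-0.37, SE 0.08).

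Rps9 (-0.33), Rps6 (-0.33) and Rpl8 (-0.29) were the other 3. Rps6 no longer passed without mouse 7 (limma adjusted p = 0.0526) or without any 1 of 16 other arrays of the 58. The median over the 26 genes was -0.16 and over all genes 0.01. With the mouse as a fixed block, over the 28 mice with both regions, 8 genes passed, and Rps15 (-0.22, limma adjusted p = 0.0283) and Rps27l (-0.32, limma adjusted p = 0.049) were the added ones.

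WT hippocampus and WT frontal cortex differed for 13 of the 26 genes, all higher in hippocampus. None was lower, 0 of 26, and of all genes 19.6% were higher and 19.2% lower. The median difference was 0.14 for the 26 genes and -0.01 for all genes. Rps4l stood apart from the rest of the family, at 7.28, 7.60 and 8.13 in WT hippocampus, against 5.94, 6.83 and 6.99 in WT frontal cortex. The ranges did not overlap, for this 1 of the 26 genes, and 2.92% of all genes had such a gap with hippocampus higher. The difference was 0.91 (SE 0.11, limma adjusted p = 1.3e-09).

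In TG mice Rps4l lay at 6.58, 7.58 and 8.22 in hippocampus, against 5.87, 6.57 and 7.10 in frontal cortex. The lowest of these hippocampus arrays was that of mouse 4, the array low in hippocampal field markers, and the next was at 7.26, above every TG frontal cortex array. Across all arrays Rps4l had the widest range of the 26 genes, 2.35, and the largest SD within groups, 0.32. Rps6 lay at 7.04, 7.33 and 7.68 in WT hippocampus, against 6.26, 6.74 and 7.28 in WT frontal cortex, and was higher by 0.62 (SE 0.07, limma adjusted p = 2.2e-10). Rps27l lay at 6.55, 6.998 and 7.53 in WT hippocampus, against 6.37, 6.59 and 6.78 in WT frontal cortex, and was higher by 0.41 (SE 0.08, limma adjusted p = 1.5e-05). Both overlapped between the regions.

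The others that were higher in WT hippocampus were Rpl14 (0.31), Rpl5 (0.26), Rpl4 (0.24), Rpl15 (0.21), Rps24 (0.20), Rps9 (0.19), Rpl8 (0.18), Rpl22 (0.18), Rps14 (0.14) and Rps3 (0.13). Rpl5 lay at 8.0, 8.24 and 8.41 in WT hippocampus, against 7.77, 7.99 and 8.21 in WT frontal cortex. Rpl15 lay at 8.98, 9.10 and 9.20 in WT hippocampus, against 8.74, 8.86 and 9.02 in WT frontal cortex, with an overlap between 8.98 and 9.02. Rps15 (0.00) and Rpl31 (0.00) were among the 13 that did not pass. Rps14 no longer passed without any 1 of 6 arrays and Rps24 without any 1 of 3 of the 58. Of 13 choroid plexus markers 5 were higher in WT hippocampus (median 0.84), and with their mean in the fit Rps14 (limma adjusted p = 0.0554) and Rps24 (limma adjusted p = 0.0725) did not pass.

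The comparison of WT regions and the frontal cortex comparison of genotypes share the WT frontal cortex arrays, so they were set side by side only. Rps6 was at 0.62 between WT regions and at 0.57 between genotypes in frontal cortex. Rps14 was at 0.14 between WT regions and at 0.52 between genotypes. Rpl5 was at 0.26 between WT regions and at 0.00 between genotypes, and Rps4l at 0.91 between WT regions and at -0.27 between genotypes. All 13 markers of oligodendrocytes that were measured were higher in WT hippocampus than in WT frontal cortex (median 1.23), with a list mean of 7.81 to 8.63 in WT hippocampus and 6.68 to 7.60 in WT frontal cortex. Of the 19 microglial markers 0 differed between the WT regions. Of 13 endothelial markers 8 were lower in WT hippocampus and 0 higher (median -0.31). Of 19 neuronal markers 9 were lower and 2 higher. Of 14 astrocyte markers 1 was lower and 5 higher, and of 10 markers of meninges 5 were lower and 2 higher. Among all genes 19.2% were lower and 19.6% higher. The part of these markers in the result was not tested.

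The mean over the 26 genes was 6.88 to 7.07 in TG frontal cortex and 6.68 to 6.82 in WT frontal cortex. Every TG array was above every WT array. In hippocampus it was 6.88 to 7.09 in TG mice and 6.81 to 6.97 in WT mice, with overlap. All 19 microglial markers measured were higher in TG frontal cortex (median 2.35) and 19 of 19 in TG hippocampus (median 1.30). The microglial list mean was 8.49 to 9.80 in TG frontal cortex and 6.28 to 6.70 in WT frontal cortex, and 6.41 to 9.29 in TG hippocampus and 6.19 to 6.49 in WT hippocampus. The 6.41 was the array of mouse 7, and without it the lowest TG hippocampus array was at 6.92, above every WT array. Of 14 astrocyte markers 14 were higher in TG frontal cortex and 5 in TG hippocampus, and of 19 neuronal markers 14 were lower in TG frontal cortex and 6 in TG hippocampus. Of 13 markers each, 7 of the endothelium and 4 of oligodendrocytes were higher in TG frontal cortex, with 0 of each in TG hippocampus. The part of these markers in the ribosomal protein differences was not tested.

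**Figure D3:**
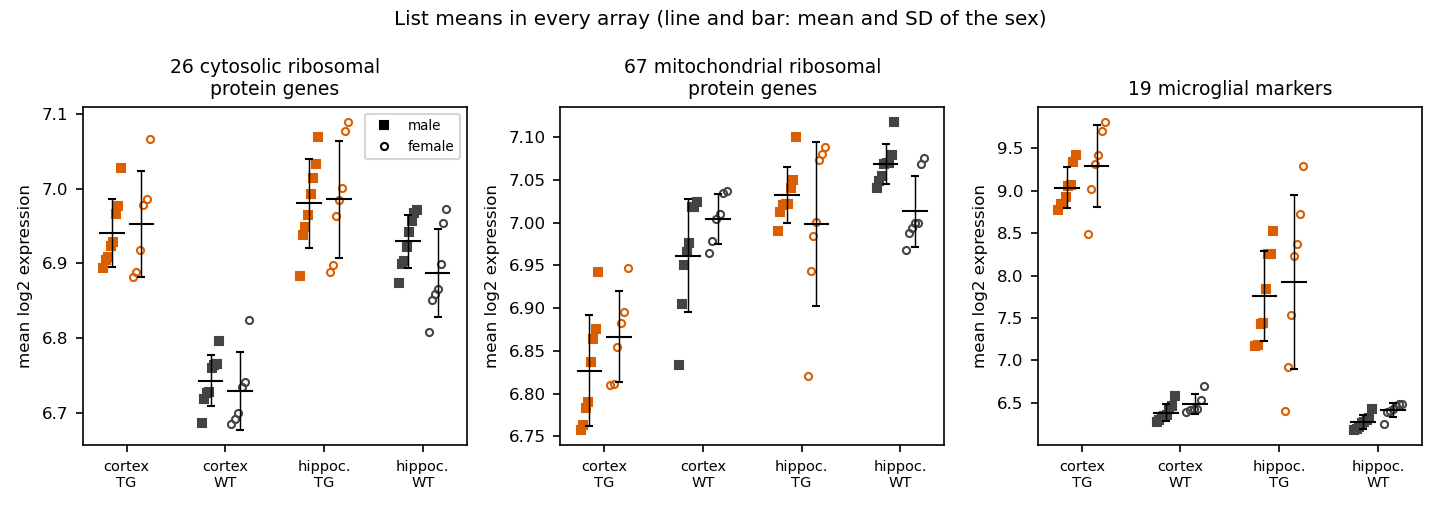
Mean log2 expression (vertical axis) of the 26 cytosolic ribosomal protein genes, 67 mitochondrial ribosomal protein genes and 19 microglial markers in every array, TG in orange and WT in grey, males as filled squares and females as open circles, with the mean and SD of each sex. In frontal cortex the cytosolic mean is 6.88 to 7.07 in TG and 6.68 to 6.82 in WT arrays, while the mitochondrial mean is 6.76 to 6.95 in TG and 6.83 to 7.04 in WT arrays.

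Single mice differed in how many of the 26 genes lay above the mean of their own group of region, sex and genotype. The share of all genes above their group mean in the same arrays was not computed. A shift of a whole array therefore cannot be told apart from one of these genes. WT mice varied too. WT female mouse 2 was above for 18 genes in hippocampus and 7 in frontal cortex, and WT female mouse 1 for 13 in hippocampus and 18 in frontal cortex. All mice named here were chosen after their values were seen. TG male mouse 40 was above for 20 genes in hippocampus and 21 in frontal cortex, TG male mouse 53 for 18 in each region, and TG female mouse 4 for 21 in hippocampus and 17 in frontal cortex. TG male mouse 41 was above for 9 in each region, and TG female mouse 8 for 6 in hippocampus and 8 in frontal cortex. Other mice differed between their regions, as TG female mouse 12 with 16 in hippocampus and 7 in frontal cortex and TG male mouse 45 with 5 in hippocampus and 14 in frontal cortex. The microglial list mean in hippocampus was 9.29 in mouse 4 and 8.52 in mouse 40, and 7.17 in mouse 41 and 6.92 in mouse 8. Other mice did not follow this order, as TG female mouse 11 with 8.72 in hippocampus and 12 genes above. In frontal cortex the microglial mean was 9.70 in mouse 4 and 9.42 in mouse 40, and 8.84 in mouse 41 and 8.49 in mouse 8. There too other mice did not follow this order. TG female mouse 12 had a microglial mean of 9.31 with 7 genes above, and TG male mouse 46 one of 8.84 with 15 genes above. The part of these markers in the counts was not tested.

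The wider translation machinery was followed through lists of genes, whose counts stand against the shares of all genes given above: 12.9% higher and 18.7% lower in frontal cortex, and 32.6% lower among genes above the median level. Of 67 genes of the mitochondrial ribosome, which translates the mRNAs encoded in mitochondrial DNA, 41 were lower and 3 higher in TG frontal cortex, with a median of -0.16. With equal array medians 49 were lower and 1 higher, and after a second quantile normalization 36 were lower and 3 higher. Mrpl52 rose by 0.40 (SE 0.06), and Mrpl46 fell by 0.31 (SE 0.05) and Mrpl19 fell by 0.30 (SE 0.05), all with limma adjusted p under the threshold. In hippocampus 1 of the 67 was higher and 1 lower, with a median of -0.03, and with equal array medians 0 were higher and 6 lower. The effect differed between the regions for 9 of them, all 9 with a higher value in hippocampus, against 2.84% of all genes, and after a second quantile normalization 5 had a higher and 1 a lower value. The mean over the 67 genes was 6.76 to 6.95 in TG frontal cortex and 6.83 to 7.04 in WT frontal cortex.

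Among 8 genes of the elongation list 4 were higher and 2 lower in TG frontal cortex (median 0.06). The 4 included Eef2k, a kinase of Eef2 rather than a factor (0.17, SE 0.05). The 2 were Eef1e1 (-0.22) and Eif5a2 (-0.30). Eef1b2, a subunit of the exchange factor of elongation factor 1, rose by 0.47 (SE 0.06, limma adjusted p = 2.6e-07) and its partner Eef1d by 0.21 (SE 0.04). Eef2, which moves the ribosome along the mRNA, rose by 0.25 (SE 0.05). Of 28 initiation factor genes 4 were higher and 7 lower (median -0.02), with Eif3f at 0.36, Eif2b1 at -0.31 and the cap-binding Eif4e at -0.27. Of 39 genes of ribosome biogenesis 1 was higher and 11 lower (median -0.08), among them Nolc1 (-0.29), Bop1 (-0.28) and Nmd3 (-0.27).

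Of 16 genes of the mTOR and S6 kinase pathway 1 was higher and 5 lower in TG frontal cortex (median -0.07). The higher gene was Rps6kb2, an S6 kinase (0.23, SE 0.09, limma adjusted p = 0.046). Mtor (-0.10) and Akt1s1 (-0.11) were among the lower. Deptor, an mTOR inhibitor, fell by 0.45 (SE 0.07), Tbc1d7, a subunit of the TSC complex that restrains mTOR, fell by 0.27 (SE 0.07), and Rheb, which activates mTOR, fell by 0.18 (SE 0.04). Of 18 genes of the integrated stress response 4 were higher and 4 lower (median 0.03), with Eif2ak2, the kinase PKR, at 0.55, Atf3 at 0.54 and Psat1 at 0.45. Of 14 genes of p53 and its targets 1 was higher, Fas at 0.22, and 2 were lower, Phlda3 at -0.20 and Zmat3 at -0.20 (median -0.04). With equal array medians 10 mTOR pathway genes were lower and 0 higher, and 18 biogenesis genes were lower and 1 higher, where 4976 of all 17216 genes were lower.

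In hippocampus few genes of these lists passed, as of all genes, of which 3.94% were higher and 2.7% lower. Higher were 1 of 28 initiation factors and 1 of 18 stress response genes. Lower were 1 of 8 genes of the elongation list, 1 of 39 biogenesis genes and 1 of 14 p53 genes. In either direction 0 of 16 mTOR pathway genes passed. With equal array medians 0 initiation factors were higher and 1 was lower. Eef1b2 was at 0.22 (limma adjusted p = 0.096), and Eif5a2 fell by 0.15 (limma adjusted p = 0.0317). Eif2ak2 rose by 0.22 (limma adjusted p = 0.0112).

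**Figure D4:**
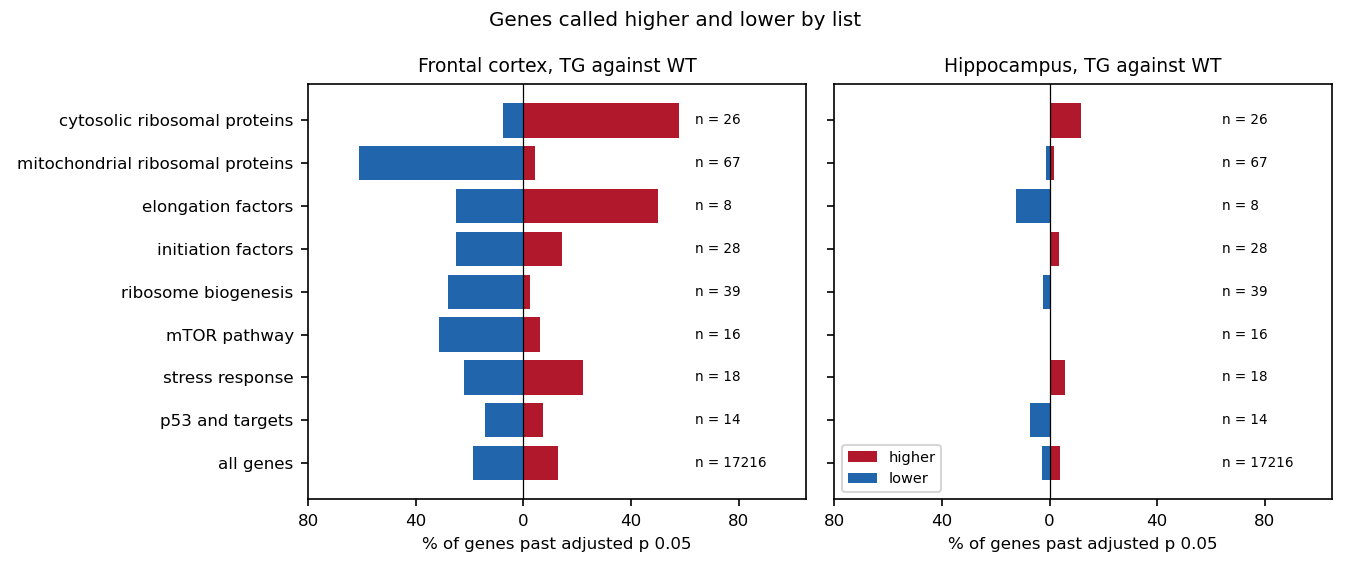
Percentage of the genes of each list (horizontal axis) that were higher (red, to the right) or lower (blue, to the left) in TG than in WT mice at an adjusted p under 0.05, in frontal cortex and in hippocampus, with the number of genes measured. In frontal cortex 15 of 26 cytosolic ribosomal protein genes are higher and 2 lower, while 3 of 67 mitochondrial ribosomal protein genes are higher and 41 lower.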

How the data were processed

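RNA from dissected frontal cortex and hippocampus was hybridised to 58 one-colour Affymetrix arrays. The values are the deposited log2 expression values, 1 per probe set and array, which the authors made, per the submitters' processing notes, by RMA and with R 3.2.2. RMA corrects background, normalizes by quantiles and summarizes probes. Neither labels nor headers name the chip definition used. The number of arrays limits the precision.

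Groups came from the labels. Genes with 1 symbol were tested, 17216 in all, and 640 probe sets without a symbol were left out. limma 3.58.1 in R 4.3.3 was fitted to the 4 groups of each region, and to all 58 arrays for comparisons between regions, with Benjamini-Hochberg adjustment over all genes and a threshold of 0.05. The fits were tested on simulated data. Figures were drawn in Python 3.11.15. Within a region each array is a different mouse, so these p-values rest on the spread between mice. In the fits to all 58 arrays they rest on the spread between arrays. There the pairing of regions within a mouse was used only in the block alternatives.

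The members, the lists and the rules were chosen with earlier results of these data known. For genotype over both sexes and for WT regions, up to 3 genes with the largest rise and 3 with the largest fall were given. For the sex and region differences of the TG effect and for WT sexes, it was up to 3 genes of smallest p past the threshold. Also given with values were the paralogs and their partners, and Rpsa, Rps6 and Rpl5. From each pathway list up to 3 genes of smallest p were named; others in the text were chosen after their values were seen. Of 10 markers of meninges 1 was higher in TG frontal cortex and 0 in TG hippocampus.

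The labels' protocols state that both regions were taken from each mouse, so 28 mice pair arrays. Deviations of a mouse's arrays from their group means correlated at -0.03 to 0.36 (median 0.11), and 15 of 28 pairs were over 0.1. Alternatives covered scaling, filter, prior, array weights, the arrays in the fit, a choroid plexus covariate, the mouse as a block and leaving out arrays. List counts under other scalings were added after seeing the data.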

Additional observations from a re-analysis of the deposited data

Results flagged for a closer look

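In groups of 4 to 10 arrays the gap between the most extreme array and the next was set against Dixon's 95% limit for the genes named by rule, in 80 tests of a gene in a group, of which chance passes about 1 in 20. Passing were Rpl26 in the frontal cortex of TG female mouse 4, at 12.79 with the next array at 12.50, and Rps14 in the same array, at 10.56 with the next at 10.23. Rps6 in the hippocampus of TG female mouse 8 was low at 7.19 with the next at 7.55. Rps3 in the hippocampus of WT male mouse 51 was low at 5.78 with the next at 5.98.

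The TG effect was smaller in hippocampus than in frontal cortex, by a direct limma test of the difference, for Rps14 (-0.39), Rpl14 (-0.37), Rpl26 (-0.34), Rps9 (-0.33), Rps6 (-0.33) and Rpl8 (-0.29). The microglial list moved with them, with 19 of 19 markers also less increased in hippocampus, as did 8 of 14 astrocyte markers (median -0.28). Of 13 endothelial markers 0 passed by limma and 7 had an unadjusted p under 0.05, as did 3573 of all 17216 genes. Of the endothelial estimates 13 of 13 were below 0 (median -0.31). The part of these lists in the result was not tested.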

How the results depend on the processing

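Directions of single genes were followed only for genotype over both sexes in each region, for WT regions and for the region difference. In these comparisons no called gene reversed its direction under any alternative run. Estimates without a call changed sign 25 times, and 73 times more when single arrays were left out. In frontal cortex 15 higher genes became 15 to 16 and the median 0.24 to 0.28 when single arrays were left out. The 2 lower genes became 1 at an adjusted p under 0.01, after a second quantile normalization, with array weights, in the fit over all 58 arrays and without WT mouse 51, 4 with equal array medians, and 1 to 2 without single arrays. In males the 1 lower gene became 0 at 0.01, after quantile normalization, with a trended robust prior and in the fit to the groups compared, and 0 to 1 without single arrays. In females it became 0 at 0.01, 2 with equal medians and 0 to 1 without single arrays. With only genes above the median level, which leaves out dim members, the median was 0.35 in females and 0.31 in males.

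In hippocampus the 3 higher genes became 0 at 0.01, 1 with equal medians (Rps6), 1 with the choroid plexus mean as covariate, and 2 to 5 without single arrays, with 5 without WT female mouse 14. Rps15 also missed the threshold after quantile normalization (adjusted p = 0.196). In females the 0 higher genes became 1 after quantile normalization, 2 among genes above the median level, 1 with a trended robust prior, and 0 to 3 without single arrays. For all genes, equal medians gave 576 higher and 1157 lower in hippocampus, against 678 and 465 as deposited, and for the region difference 662 higher and 637 lower, against 489 and 697. The cause of these shifts was not tested.

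Between WT regions the 13 higher genes were 11 to 13 without single arrays and 13 with the mouse as a replicate block, fixed or random. For the region difference the 6 genes became 5 to 8 without single arrays, 5 without mouse 7, 8 without mouse 4, 8 with a fixed and 7 with a random block. Dim members (means under 4) limit what small differences could be detected.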
